A study of Homo sapiens with 8 samples.

Results

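The subunits of the oxidative phosphorylation system were followed as RNA in OVCAR3 cells, an ovarian cancer cell line. They were chosen by gene name as the structural subunits of the 4 respiratory complexes and of ATP synthase, whether encoded in the nucleus or in mitochondrial DNA. Their values did not enter the choice, but earlier results of these data were known when it was made. Of 100 gene symbols listed, 98 were found, in 103 of the 20165 rows of each count table. Of these rows, 90 were nuclear and 13 mitochondrial. NDUFA6 and COX7B were not analysed here.

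RNA-seq libraries of 4 groups were compared, with 2 libraries in each. The siControl and siTARG1 cells received 30 nM of a control siRNA or of an siRNA against TARG1 for 48 h. TARG1, the product of OARD1, removes mono(ADP-ribose) (MAR) from proteins. Both RACK1 lines, RACK1-WT and RACK1-Mut, were kept for 48 h in 1 µg/ml Dox. Dox switches on a hairpin that depletes the cells' own RACK1, a protein of the 40S ribosomal subunit, and an HA-tagged RACK1 cDNA, wild type or mutated at its MAR acceptor sites, replaces it. These lines were made with lentivirus and drug selection, and they carry the hairpin in both arms, so that neither is unmodified OVCAR3. All RNA came from clarified lysates depleted of rRNA. In bulk RNA, fewer cells expressing a gene and less RNA per cell cannot be told apart. OARD1 was at 48.5 and 52.0 CPM (counts scaled to library size with TMM factors) in siControl and at 3.11 and 3.98 CPM in siTARG1. RACK1 was at 1762 and 1898 CPM in RACK1-WT and at 1397 and 1454 CPM in RACK1-Mut (edgeR, adjusted p = 0.30), below the 4622 and 4516 CPM of siControl, and this row cannot tell endogenous from introduced RACK1. Of 10 markers of OVCAR3, PAX8 lay between 265 and 439 CPM over all libraries, MSLN between 21.4 and 179 CPM and WT1 between 15.4 and 47.1 CPM. In siTARG1, 5 of these markers fell, among them the keratins KRT18 (log2 fold change -1.31) and KRT8 (-1.08), and 1 rose, KRT7 (0.44). PAX8, WFDC2, EPCAM and MSLN were not called. Thus 60% of the 10 markers were called, beside 46.6% of all rows tested. Of 5 markers of other cell types 0 were called, with PTPRC at 0.071 to 0.80 CPM. Libraries held between 30989049 and 42668783 counts over exons.

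Oxidative phosphorylation couples the transfer of electrons from NADH and succinate to oxygen with the making of ATP. Complex I takes electrons from NADH and complex II, succinate dehydrogenase, takes them from succinate in the citric acid cycle. Complex III passes them to cytochrome c and complex IV, cytochrome c oxidase, to oxygen, while complexes I, III and IV pump protons that drive ATP synthase, complex V. Complex II alone has no subunit encoded in mitochondrial DNA; the other complexes mix subunits of both genomes, so that RNA made in the nucleus and in mitochondria supplies one assembly.

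Levels were first compared between subunits per kb of exon, over rows not merged with another named gene (those of NDUFA7, NDUFA11 and NDUFC2 also hold a readthrough or a gene without a symbol). In siControl cells the nuclear subunits of complex I had a median of 94.1 CPM per kb (32 rows, 7.15 to 374), those of complex III 95.4 (8 rows), those of complex IV 57.9 (15 rows) and those of complex V 113 (15 rows). The highest 3 members were all mitochondrial and all of complex IV. MT-CO3 was at 6136 CPM per kb, MT-CO1 at 3128 and MT-CO2 at 771 in siControl. These encode the catalytic core of cytochrome c oxidase. The 7 mitochondrial subunits of complex I lay within the nuclear range, at 26.7 to 185 CPM per kb. MT-CO1 and MT-CO3 together took 85.7 to 87.8% of all counts on the mitochondrial members, and the authors' masking of positions shared between MT-ATP6 and MT-ATP8 shortened both rows. At the low end, tissue-restricted forms were near or at 0: COX6A2 and COX7A1, the heart and muscle forms, had 0 counts in all 8 libraries, COX8C had at most 4 counts in any library, and COX4I2 was at 0.351 and 0.425 CPM in siControl while COX4I1, the general form, was at 299 and 318 CPM.

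**Figure D1:**
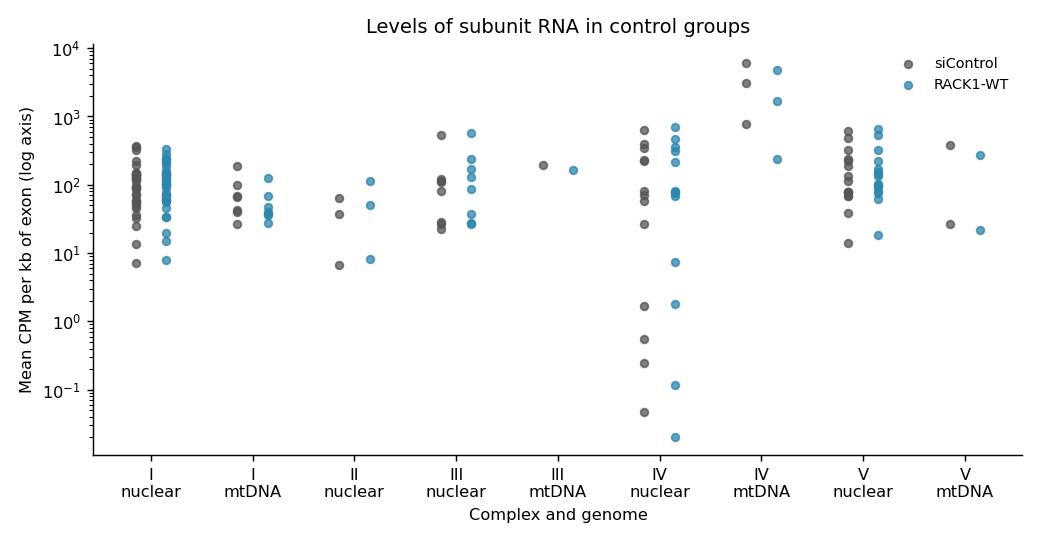
Mean CPM per kb of exon (log axis) of each member with a row of its own in siControl and RACK1-WT, by complex and genome; members at 0 are not drawn. MT-CO3, MT-CO1 and MT-CO2 stand at the top in siControl, between 771 and 6136 CPM per kb.

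The siTARG1 cells were compared with the siControl cells to ask which subunit RNAs differ after knockdown of TARG1. Complex II was the complex in which every subunit passed the test, and its subunits moved in opposite directions. SDHC, one of the membrane anchors, and SDHB, the iron-sulfur subunit, fell to 43.4% and 56.9% of siControl, while SDHA, the flavoprotein that oxidizes succinate, and SDHD, the other membrane anchor, rose to 116% and 123%. Of the 35 nuclear rows of complex I, 9 fell, 2 rose and 24 did not pass. Among those that fell, NDUFB5 was at 61.6% and NDUFS1 at 71.1% of siControl. The calls in complexes III and IV were all increases, but most of these have limits given below. UQCRHL shares reads with UQCRH, the UQCRQ row counted no coding sequence, and COX7B2 and NDUFA4L2 lay at low levels. None of the 13 mitochondrial rows passed. Of the nuclear rows tested, 31.4% were called in complex I, 25% in complex III, 18.8% in complex IV and 26.3% in complex V. These shares lay below the 46.6% of all rows tested, while complex II, with 4 rows, lay above it.

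Over all members, 26 of the 99 rows tested (26.3%) passed an adjusted p of 0.05 in edgeR's quasi-likelihood test, 13 higher and 13 lower, against 46.6% of the 14024 rows of the whole table. Of these rows 23.5% were higher and 23.1% lower. The nuclear members gave all 26 calls, out of 86 tested. Their median log2 fold change was -0.0044, beside 0.0073 over all rows tested, and the median size of the change without its sign was 0.132, beside 0.276. Among rows with a mean of at least 30 CPM, 31.1% of 74 nuclear members passed, beside 52.9% of 6643 rows. The libraries of the groups did not overlap for 48 of the 86 nuclear members (55.8%), beside 70% of all rows. Of the called members, 14 kept the call in every alternative in which they were tested, of 16 alternatives: the 7 lowest and, among the increases, SDHD, UQCRH, COX6C, COX7B2, ATP5MC1, ATP5MC3 and ATP5MG.

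**Figure D2:**
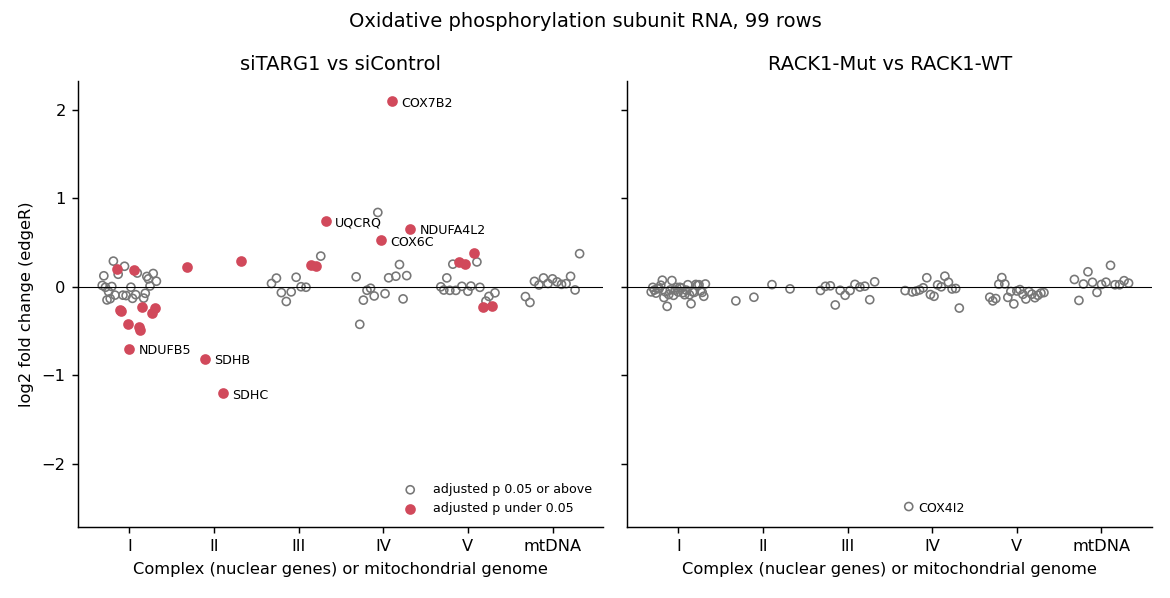
Log2 fold change of each of the 99 rows tested, by complex for nuclear genes and together for the mitochondrial genome (mtDNA), in siTARG1 against siControl (left) and RACK1-Mut against RACK1-WT (right); filled points have an adjusted p under 0.05. On the left 13 points are filled above 0 and 13 below, none of them mitochondrial, and on the right 0 are filled; COX4I2 on the right had 1 count in the 4 libraries.

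SDHC (ENSG00000143252, chromosome 1 of GRCh37 from 161284171 to 161332996, plus strand) was at 87.8 and 91.9 CPM in siControl and at 36.3 and 41.8 CPM in siTARG1. The log2 fold change was -1.20 with a standard error of 0.077 (edgeR, adjusted p = 3.6e-08), the lowest of all members, and over coding-sequence reads alone it was -1.69. SDHB (ENSG00000117118, chromosome 1 from 17345159 to 17380527, minus strand) was at 73.2 and 74.4 CPM in siControl and at 41.7 and 42.3 CPM in siTARG1, a log2 fold change of -0.81 with a standard error of 0.069 (adjusted p = 4.7e-07). For both genes the siTARG1 libraries lay far below the siControl libraries, with a gap wider than the spread within either group. SDHA was at 87.8 and 89.2 CPM in siControl and at 104 and 102 CPM in siTARG1, a log2 fold change of 0.22 (adjusted p = 0.013), a call that was lost without siControl replicate 1 (adjusted p = 0.066). SDHA has pseudogenes of near-identical sequence, so its count is uncertain. SDHD was at 114 and 113 CPM in siControl and at 142 and 138 CPM in siTARG1, a log2 fold change of 0.30 (adjusted p = 0.0018), but its row also holds reads of the gene TEX12. Within single libraries, which needs no scaling between them, the ratio of SDHC to SDHA was 1.00 and 1.03 in siControl and 0.347 and 0.411 in siTARG1, and that of SDHB to SDHA was 0.833 and 0.835 against 0.399 and 0.416. The ratio of SDHD to SDHA was 1.30 and 1.27 against 1.35 and 1.36.

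**Figure D3:**
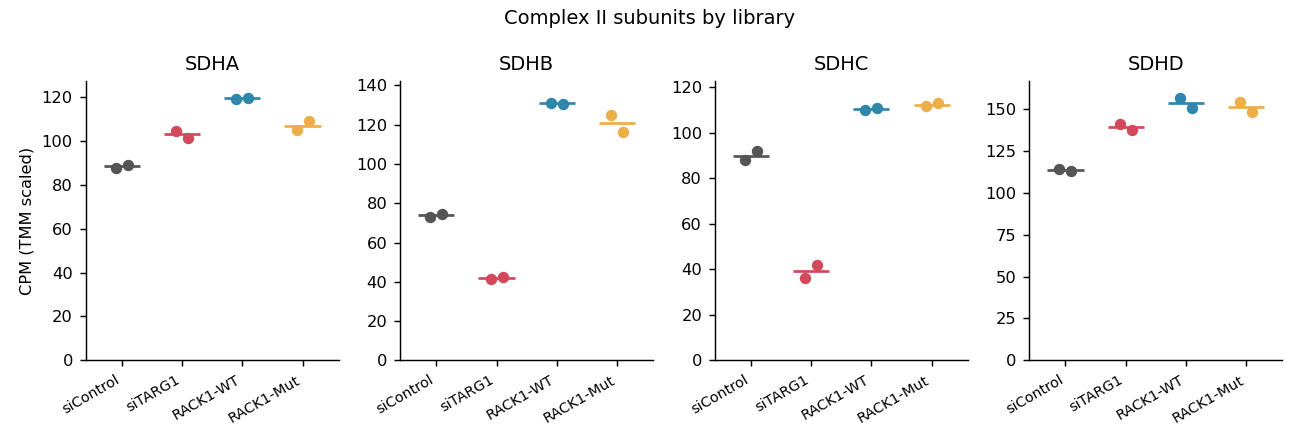
CPM of the 4 complex II subunits in each library (points) with the mean of each group (bars), n = 2 per group. SDHB and SDHC are lower in siTARG1 than in siControl in both libraries, and SDHA and SDHD higher. In RACK1-Mut, SDHA and SDHB lie below RACK1-WT in both libraries, SDHC lies slightly above and SDHD overlaps. None of the 4 passed in that comparison.

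In complex I, 9 nuclear rows fell and 2 rose of 35 tested, with a median log2 fold change of -0.07. Its subunits form a matrix arm, which holds the flavin and iron-sulfur clusters of the NDUFS and NDUFV core subunits, and a membrane arm, which holds the mitochondrial subunits and the NDUFB accessory subunits. Of 11 NDUFB rows 4 fell and 1 rose, and of 8 NDUFS rows 3 fell and 0 rose. Of 11 NDUFA rows, also accessory subunits, 1 rose and 0 fell (NDUFA4 and NDUFA4L2 are counted here in complex IV).

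NDUFB5 (chromosome 3 from 179322478 to 179345435, plus strand), an accessory subunit of the membrane arm, was at 175 and 167 CPM in siControl and at 105 and 105 CPM in siTARG1, a log2 fold change of -0.70 with a standard error of 0.064 (adjusted p = 1.0e-06). NDUFS1 (chromosome 2 from 206979541 to 207024233, minus strand), a core subunit that carries iron-sulfur clusters, was at 165 and 157 CPM against 114 and 115 CPM, a log2 fold change of -0.49 (adjusted p = 2.5e-05). In each case the libraries of the groups were separate. NDUFC2, a membrane arm subunit whose row includes its readthrough with a neighbour, was at 308 and 328 CPM against 223 and 240.4 CPM (log2 fold change -0.46, adjusted p = 1.4e-04). NDUFB4 was at 128 and 132 CPM against 92.0 and 102 CPM (-0.42, adjusted p = 3.3e-04). NDUFS8, a core subunit of the matrix arm, was at 97.5 and 92.8 CPM against 79.0 and 76.2 CPM (-0.30, adjusted p = 0.0032). All of these kept the call in each alternative. NDUFB10 was at 244 and 258 CPM against 203 and 211 CPM (-0.28, adjusted p = 0.0042), and the call was lost without siControl replicate 2 (adjusted p = 0.053). Further calls in complex I, named after their values were seen, were NDUFB1 and NDUFV2, which fell to 83.3% and 84.9% of siControl, and NDUFA8 and NDUFB8, which rose to 115% and 114%. Each of these 4 lost the call in at least 1 alternative, NDUFA8 in 12, and the NDUFB8 row also holds SEC31B.

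The 24 nuclear rows of complex I that did not pass had log2 fold changes from -0.15 for NDUFA12 to 0.29 for NDUFA5. NDUFB2 came close to the threshold, at 0.23 (adjusted p = 0.056 from edgeR), and was higher in both siTARG1 libraries. NDUFV1, the core subunit that binds NADH and flavin, was at 212 and 191 CPM in siControl and at 239.7 and 207 CPM in siTARG1, and these libraries overlapped. NDUFA10 was at 159 and 166 CPM against 176 and 178 CPM, and did not pass (adjusted p = 0.13 from edgeR). The ratio of NDUFB5 to NDUFV1 within a library was 0.824 and 0.873 in siControl and 0.437 and 0.508 in siTARG1.

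Complex III had 3 increases and 0 decreases among 12 nuclear rows. UQCRH, the hinge protein that contacts cytochrome c1, was at 327 and 329 CPM in siControl and at 393 and 382 CPM in siTARG1, a log2 fold change of 0.24 (adjusted p = 0.0063). UQCRHL, a near-identical copy that shares reads with it, was at 57.5 and 67.3 CPM against 69.5 and 77.4 CPM, and its call was lost in 7 alternatives. The UQCRQ row that passed (log2 fold change 0.74, adjusted p = 0.026) counted no coding sequence and lay at 0.939 to 1.89 CPM in these libraries, so it does not measure the coding mRNA of that subunit. The core proteins UQCRC1 and UQCRC2, the cytochrome CYC1 and the Rieske protein UQCRFS1 had overlapping libraries, with log2 fold changes of 0.11, 0.0010, 0.04 and -0.0047.

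Complex IV also had 3 increases and 0 decreases, among 16 rows. COX6C, a small transmembrane subunit, was at 59.7 and 65.6 CPM in siControl and at 87.6 and 92.6 CPM in siTARG1, a log2 fold change of 0.52 with a standard error of 0.076 (adjusted p = 6.8e-05). COX7B2, a form known mainly from testis, had 5 and 6 counts in siControl and 32 and 25 counts in siTARG1 (log2 fold change 2.09, standard error 0.42, adjusted p = 0.0010), so that its size rests on few counts. NDUFA4L2, a paralog of NDUFA4 induced by hypoxia in many cells, was at 2.12 and 1.84 CPM against 3.17 and 3.12 CPM (0.65, adjusted p = 0.0080), and the call was lost over coding-sequence reads (adjusted p = 0.16) and without siControl replicate 2 (adjusted p = 0.059). NDUFA4, the common form beside NDUFA4L2, was at 135 and 112 CPM against 145 and 125 CPM, and these libraries overlapped.

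In the pairs COX4I1 and COX4I2, COX6A1 and COX6A2, COX6B1 and COX6B2, and COX8A and COX8C, the first carried nearly all reads and did not pass. COX7A2 and COX7A2L were at 237 and 250 CPM on average in siControl, and neither passed. COX7B, the paralog of COX7B2, was not analysed. COX4I1 was at 299 and 318 CPM in siControl and at 336 and 332 CPM in siTARG1, with an adjusted p of 0.18 from edgeR. COX6A1, in a row with GATC, COX6B1, COX7A2, COX7A2L and COX8A had log2 fold changes between -0.14 and 0.10. COX6B2 lay at 0.0327 to 0.236 CPM in the siRNA libraries. COX7C was counted only in rows without coding sequence, at 3.89 to 8.61 CPM in these libraries.

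ATP synthase had 3 increases and 2 decreases among 19 nuclear rows. ATP5MG, subunit g of the membrane part, was at 124 and 124 CPM in siControl and at 161 and 163 CPM in siTARG1 (log2 fold change 0.38, standard error 0.067, adjusted p = 3.5e-04). The 3 genes ATP5MC1, ATP5MC2 and ATP5MC3 encode the same mature c subunit, which builds the rotor ring. ATP5MC1 was at 45.3 and 45.9 CPM against 57.3 and 53.7 CPM (0.29, adjusted p = 0.0041), and ATP5MC3 was at 224 and 220.0 CPM against 272 and 257 CPM (0.25, adjusted p = 0.0072), whereas ATP5MC2 was at 229 and 229 CPM against 236 and 223 CPM. ATP5MK and ATP5PF, accessory and stalk subunits, fell to 85.4% and 86% of siControl (adjusted p = 0.011 and 0.015), and these calls were lost in 2 and 3 alternatives that left out a library. The catalytic and central subunits ATP5F1A, ATP5F1B and ATP5F1C had log2 fold changes of 0.00012, -0.04 and 0.10 and did not pass. ATP5MGL, a copy of ATP5MG that can share its reads, did not pass (adjusted p = 0.22 from edgeR).

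**Figure D4:**
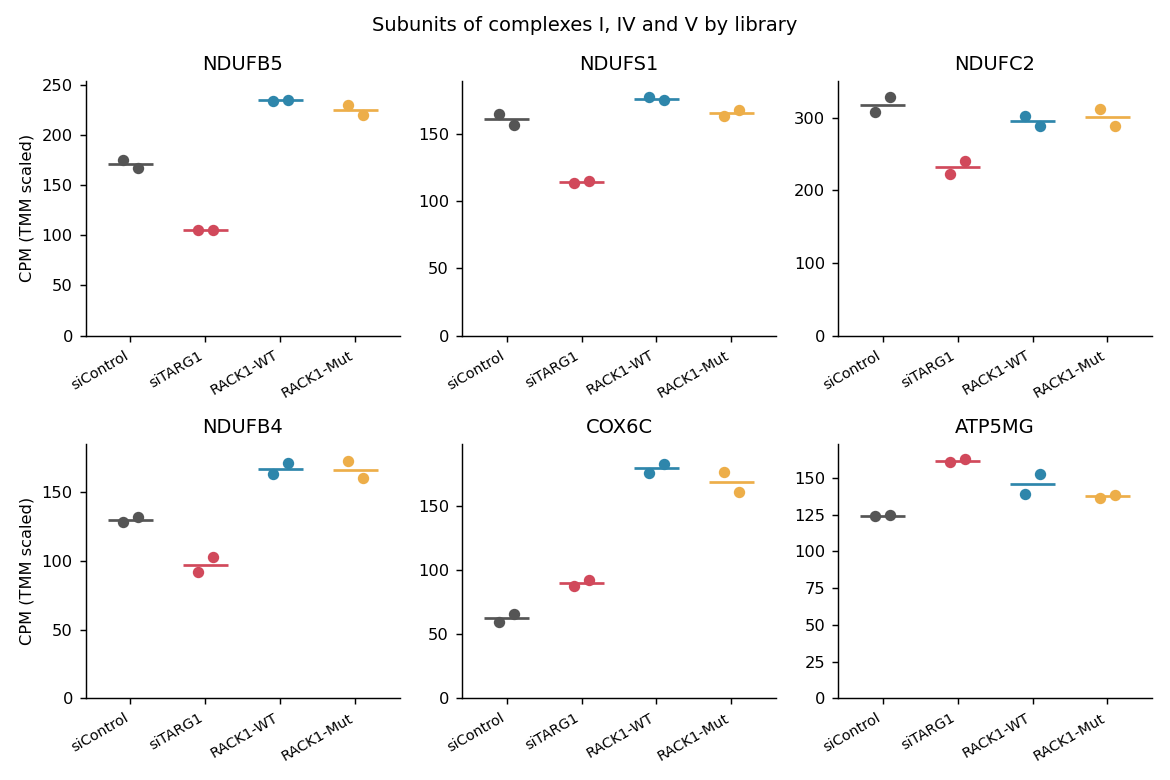
CPM of 6 nuclear subunits in each library (points) with the mean of each group (bars), n = 2 per group. NDUFB5, NDUFS1, NDUFC2 and NDUFB4 are lower and COX6C and ATP5MG higher in both siTARG1 libraries than in both siControl libraries.

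The mitochondrial genes are transcribed together from mitochondrial DNA and cut into single mRNAs, and their 13 products are core subunits of complexes I, III, IV and V. None of them passed in siTARG1 against siControl, and 0 had an unadjusted p under 0.05 in edgeR (1 in DESeq2). Their median log2 fold change was 0.04, from -0.18 to 0.37, with a median standard error of 0.17, beside 0.075 for the nuclear members. Their share of all exon counts was 0.906% and 1.27% in siControl and 1.08% and 1.27% in siTARG1 (two-sided exact permutation p = 0.667, where 2 against 2 libraries allow no p below 0.333).

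The spread within groups followed the replicate number. MT-CO1 was at 4045 and 5600.5 CPM in siControl and at 4749 and 5317 CPM in siTARG1. MT-CO2 was at 383 and 671 CPM against 466 and 603 CPM, and MT-CO3 at 4027 and 5583 CPM against 4629.6 and 5669.9 CPM. In these core subunits of complex IV the libraries numbered 1 were below those numbered 2 in both groups. MT-ND1, MT-ND2 and MT-ND3 of complex I were at 73.5 and 117, 35.3 and 52.4, and 18.7 and 27.1 CPM in siControl and at 81.8 and 121, 39.5 and 51.3, and 20.1 and 26.3 CPM in siTARG1. MT-ND4, MT-ND4L and MT-ND5 were at 210.1 and 298, 17.6 and 21.9, and 56.7 and 86.8 CPM against 236 and 285, 18.5 and 24.3, and 57.9 and 81.8 CPM. MT-ND6, the one subunit encoded on the other strand, was at 12.7 and 15.4 CPM against 13.6 and 22.7 CPM. The libraries of the 2 groups overlapped for each of these genes. MT-CYB of complex III was at 188 and 261 CPM against 202 and 259 CPM, MT-ATP6 at 183 and 305 CPM against 194 and 258 CPM, and MT-ATP8 at 3.14 and 5.51 CPM against 2.82 and 4.71 CPM.

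All 13 genes were higher in replicate 2 than in replicate 1, by a median ratio of 1.45 in siControl (1.21 to 1.76) and 1.31 in siTARG1 (1.12 to 1.67), while the 86 nuclear members had median ratios of 1.01 and 0.986. Comparing libraries of one number, 12 of the 13 were higher in siTARG1 for number 1 and 4 of 13 for number 2. The absence of calls rests on all 4 libraries: without siControl replicate 2 the median was 0.32 and 6 rows were called higher (MT-ND1, MT-ND2, MT-ND4, MT-CO1, MT-CO2 and MT-CO3), and without siControl replicate 1 it was -0.20 and 2 were called lower (MT-CO2 and MT-ATP6). Without siTARG1 replicate 1 it was 0.21, with MT-ND6 called higher, and without siTARG1 replicate 2 it was -0.16 with 0 called. MT-ND6 was also called with no filter on low counts (adjusted p = 0.044). Nuclear copies of mitochondrial sequence can share reads with these rows, and their part was not tested.

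**Figure D5:**
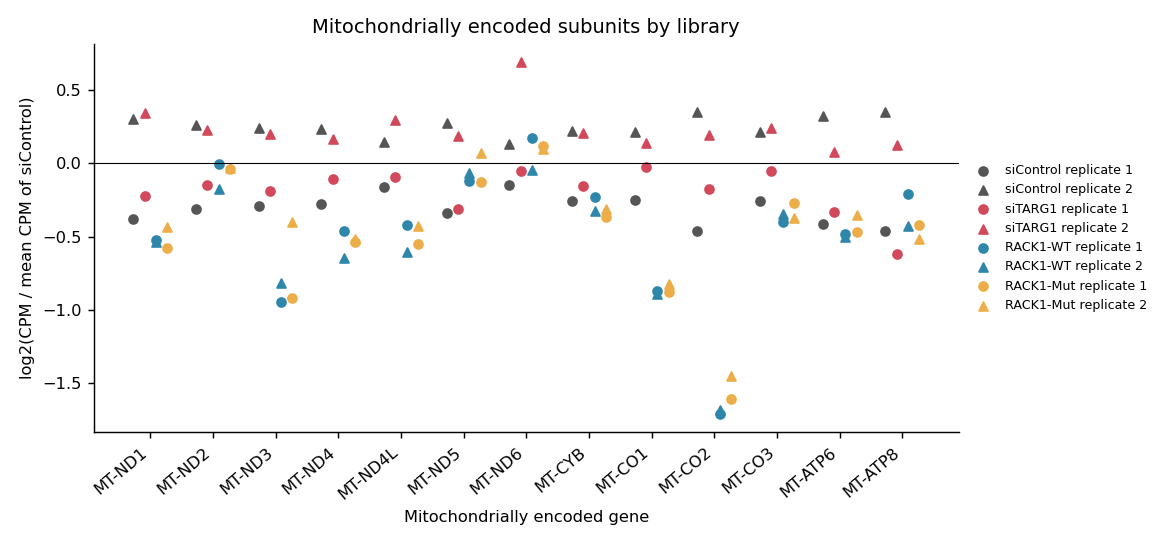
Log2 ratio of each library's CPM to the mean CPM of siControl for the 13 mitochondrial genes (circles replicate 1, triangles replicate 2). In siControl and siTARG1 every triangle lies above the circle of its group, and MT-CO2 lies lowest in the RACK1 lines.

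RACK1-Mut cells were compared with RACK1-WT cells to ask whether loss of the MAR acceptor sites of RACK1 goes with other levels of these RNAs. None of the 99 rows passed in edgeR or DESeq2, and 0.00713% of the rows of the whole table did. An unadjusted p under 0.05 was reached by 5 members in edgeR and 5 in DESeq2 (of 99 tested), beside 4.9% of all rows in edgeR, a like share. The nuclear members had a median log2 fold change of -0.04, with 22 above 0 and 64 below, and the mitochondrial members one of 0.04, with 11 above and 2 below, beside 0.0047 over all rows. The medians over the nuclear members ranged from -0.084 to -0.013 when single libraries were left out, and libraries of the 2 lines did not overlap for 30 of 86 nuclear members (34.9%), beside 37.8% of all rows. Of the 74 nuclear members with a mean of at least 30 CPM, 0 had a change over 0.5 on the log2 scale, beside 0.0753% of all 6643 such rows, a like share. In counts simulated for this comparison over 13860 genes the test recovered 92% of 2-fold and 75% of 1.5-fold changes. The changed genes were drawn at random, and the simulated spread followed the trend over expression level and not the spread of each gene. These shares therefore do not give the recovery for the members, and the absence of calls cannot be judged from them.

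The 5 members with an unadjusted p under 0.05 in edgeR were all lower in RACK1-Mut, and those named here were chosen for that value. ATP5MC3 was at 347 and 352 CPM in RACK1-WT and at 319 and 292 CPM in RACK1-Mut (log2 fold change -0.19, adjusted p = 0.86). SDHA was at 119 and 119.7 CPM against 105 and 109 CPM (-0.16, adjusted p = 0.98). In both genes the 2 libraries of each line lay apart from those of the other. ATP5F1B, the catalytic beta subunit of ATP synthase, was at 1228 and 1211 CPM against 1094 and 1090.4 CPM (-0.16), and NDUFA9, in a row with GALNT8, at 110 and 112 CPM against 96.6 and 93.5 CPM (-0.22, adjusted p = 0.80). The other complex II subunits differed less than SDHA. SDHB was at 131 and 131 CPM against 125 and 116 CPM, and SDHC at 110 and 111 CPM against 112 and 113 CPM. SDHD was at 157 and 151 CPM against 154 and 148 CPM. The libraries of the lines were apart for SDHB and SDHC and overlapped for SDHD. NDUFB5 was at 234 and 235 CPM against 230 and 220 CPM, and COX6C at 176 and 183 CPM against 177 and 161 CPM. The mitochondrial share of exon counts was 0.733% and 0.733% in RACK1-WT and 0.757% and 0.747% in RACK1-Mut (two-sided exact permutation p = 0.333, the smallest that these libraries allow). MT-CO1 was at 2638 and 2595 CPM against 2626 and 2722 CPM, and MT-CO2 at 161 and 164 CPM against 173 and 192 CPM.

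The effects of siTARG1 and of RACK1-Mut, each against its own control, were then compared in one contrast. They differed for 16 of the 99 rows in edgeR, 10 in the higher and 6 in the lower direction, against 32.4% of all rows. These held all 4 subunits of complex II. The difference was -1.23 for SDHC (adjusted p = 1.8e-06), -0.70 for SDHB (adjusted p = 8.3e-05), 0.38 for SDHA (adjusted p = 0.0059) and 0.32 for SDHD (adjusted p = 0.015), on the log2 scale. In complex I it was -0.64 for NDUFB5, -0.48 for NDUFC2, -0.41 for NDUFB4 and -0.40 for NDUFS1, with 0.36 for NDUFA9 and 0.25 for NDUFB8. In complex IV it was 0.61 for COX6C, 2.09 for COX7B2 and 0.89 for NDUFA4L2, and in ATP synthase 0.47 for ATP5MG, 0.45 for ATP5MC3 and 0.40 for ATP5MC1. No mitochondrial row was called, with 0 at an unadjusted p under 0.05.

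The siControl and RACK1-WT groups come from 2 experiments with different cells and treatment, which cannot be told apart, and their levels were not tested. Libraries of these groups did not overlap for 83.4% of all rows tested, with 41.1% higher and 42.3% lower in RACK1-WT. Members were counted by a stricter rule: all libraries of both RACK1 lines lay above, or all lay below, all siControl and siTARG1 libraries. The share of all rows was not taken by this rule, so it cannot be set beside these counts. Of 13 mitochondrial rows 7 were lower in the RACK1 lines by this rule and 0 higher. MT-CO2 was furthest down, at 162 CPM on average in RACK1-WT against 527 CPM in siControl, and MT-CO1 was at 2617 against 4823 CPM. Of 86 nuclear rows 31 were higher and 16 lower by the same rule. On average in RACK1-WT against siControl, COX6C was at 179 against 62.7 CPM, UQCRC1 at 471 against 225 CPM and COX7B2 at 4.98 against 0.161 CPM. For the 2 decreased complex II subunits, SDHB stood at 131 CPM in RACK1-WT and 73.8 CPM in siControl, and SDHC at 110 and 89.9 CPM.

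Genes that build or feed the system were read from lists written with the member list, beside the 46.6% of all rows called in siTARG1. Of 56 assembly factors tested, 17 rose and 11 fell (50% called). SCO1, a copper chaperone of complex IV, was at 61.4 and 60.1 CPM in siControl and at 124 and 126 CPM in siTARG1, while COX20 (log2 fold change -0.87), another assembly factor of complex IV, and NDUFAF1 (-0.86) and NDUFAF3 (-0.71), of complex I, fell. Of 18 genes for electron carriers and coenzyme Q synthesis, 5 rose and 6 fell (61.1% called): CYCS, which encodes cytochrome c, was at 52.3 and 62.9 CPM against 130.4 and 167 CPM (log2 fold change 1.37), and COQ5 (-1.07), a methyltransferase of coenzyme Q synthesis, and ETFRF1 (-1.31) were among those that fell. Of 17 genes of the citric acid cycle and pyruvate dehydrogenase, 6 rose and 5 fell (64.7% called), with PDHX, a structural component of pyruvate dehydrogenase, at 33.4 and 39.1 CPM against 111 and 122 CPM and IDH3B, a subunit of isocitrate dehydrogenase, at 67.3 and 67.0 CPM against 33.8 and 35.8 CPM. Of 38 genes of mitochondrial transcription and RNA processing 11 rose and 7 fell (47.4% called), among them MTERF3 (0.90) and PDE12 (-1.14), and of 20 genes of glycolysis 3 rose and 6 fell (45% called), with LDHA at 720 and 750 CPM against 371 and 394 CPM. Of 13 nuclear regulators of mitochondrial biogenesis 5 rose and 3 fell (61.5% called). PPARGC1B (1.08), PPARA (0.86) and ESRRA (0.52) rose, and PPARD (-0.40), PPARGC1A (-0.34) and GABPB1 (-0.26) fell. In RACK1-Mut against RACK1-WT 0 genes of these 6 lists passed in edgeR.

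The 3′ untranslated regions of the members were searched for 4 words of 7 bases that came from an earlier scan of these data and so are no independent evidence. The words TGAACAT with its shifted form GAACATA had gone with lower RNA in siTARG1 cells, and the words GAATATA with its shifted form TGAATAT had gone with higher RNA. They were read on the RNA strand only, in the longest annotated region of each row's counted transcripts on GRCh37, and the words of a pair overlap by 6 bases. Of 13747 tested rows with such a region, 15.1% hold TGAACAT and 9.47% hold GAACATA, while 15.1% hold GAATATA and 19.8% hold TGAATAT. Of 70 members with rows of their own, TGAACAT was in 8 (11.4%), and in 4 of 13 that fell, 0 of 10 that rose and 4 of 47 not called. Of all 3186 rows with a region that fell, 24.7% hold TGAACAT, beside the 30.8% of the members that fell. The site in SDHC, SDHB, NDUFB4 and NDUFB5, the 4 members with the word that fell, is printed with 11 bases on either side, the word in capitals, to show that the flanks differ:
SDHC: aaaattatcatTGAACATattaatggtta
SDHB: cagctcagagcTGAACATaatttatatct
NDUFB4: cattgaatgaaTGAACATaaacttcatta
NDUFB5: tttttttcaaaTGAACATtttaactgggg

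In SDHC the word lies at chromosome 1, 161332860 to 161332866 (plus strand), in SDHB at chromosome 1, 17345329 to 17345335 (minus strand), in NDUFB4 at chromosome 3, 120321315 to 120321321 (plus strand), and in NDUFB5 at chromosome 3, 179343906 to 179343912 (plus strand). SDHC, SDHB and NDUFB4 have regions of 773, 159 and 237 bases. TGAACAT was in 5.45% of the 55 members with regions under 1000 bases, beside 4.10% of all 5728 such regions. Among such regions in all rows that fell, 121 held the word and 1138 did not. In SDHC, SDHB and NDUFB4 the site is followed by A, so that GAACATA is there as well, and NDUFS1 holds GAACATA without TGAACAT, in a region of 9368 bases. NDUFB5 and NDUFS1 also hold both words of the second pair. The annotated regions can exceed the exons counted in a row. The NDUFB5 region has 3607 bases but its counted exons have 1141, so its printed site may lie outside them. The NDUFA5 region also exceeds its 1908 counted bases. NDUFC2, NDUFS8 and NDUFB10 fell without any of the 4 words, and NDUFA5, which did not pass (log2 fold change 0.29), holds all 4 in a region of 5122 bases. Of the members that rose, ATP5MG holds 3 copies of GAATATA and COX6C 1, and the other 8 hold none of the 4 words. Whether any of these words bears on the level of its RNA was not tested.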

How the data were processed

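RNA-seq libraries of OVCAR3 cells, 8 in all, were grouped by the sample labels. Per the labels and the study's methods, the authors removed rRNA and contaminant reads (Bowtie 1.1.2), aligned to a GRCh37 transcriptome (TopHat 2.1.1) and counted alignments of 25 to 51 bases at their centre with Plastid. The deposited values are estimated counts per merged gene row, not normalized, and RPKM, which the authors also deposited, was not used. TopHat kept multiple hits, so near-identical copies are uncertain. The 2 libraries of a group are not stated to be separate cultures, so p-values may measure technical spread only.

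Transcript names were matched to Gencode on the same build (94.7% of 36595). Rows with no matched gene held 1.15 to 1.27% of counts. Of the member rows, 83 hold 1 gene, 3 (NDUFA7, NDUFA11, NDUFC2) also hold a readthrough or a gene without a symbol, 9 also hold another coding gene, 3 count no coding sequence and 5 are second rows. The second rows of UQCRQ, UQCR11, COX7C and ATP5F1E count no coding sequence either. Counts were rounded and tested with edgeR 4.0.16 (quasi-likelihood, TMM, filterByExpr) over all 8 libraries as 4 group means, with 4 residual degrees of freedom and Benjamini-Hochberg adjustment over 14024 rows (threshold 0.05); rows of COX6A2, COX7A1, COX8C and a second row of NDUFC2 were not tested. Standard errors were derived from the fold change and the F statistic. DESeq2 1.42.0 was an alternative. The fit was tested on simulated data. R 4.3.3 and Python 3.11.15 were used. Groups of 2 libraries limit the precision.

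The members, lists and words were chosen with earlier results of these data known. Named were all mitochondrial and complex II members, the 8 highest and 8 lowest called members, calls in complexes with 5 or fewer, paralog sets, 3 genes at either end of each other list, and the targeted genes. Core subunits described as not called (such as NDUFV1, NDUFA10, UQCRC1 and ATP5F1A) and NDUFA5, NDUFA12 and NDUFB2 were named after their values were seen. The values of 1 called member are not reported here.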

Additional observations from a re-analysis of the deposited data

How the results depend on the processing

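The alternatives were DESeq2, RLE normalization, a fit without the low-count filter, a filter of 10 or more counts in each library, the 4 libraries of a comparison alone, the replicate number as a block, coding-sequence reads, library sizes without mitochondrial rows, and each library left out. A count without merged, second or non-coding rows was added after seeing the data. The number of members called stayed within 1.5 times the main number in each: 21 to 26 of siTARG1 against siControl with all its libraries, and 22 to 30 with 1 library left out; 0 in RACK1-Mut against RACK1-WT; and 15 to 17 for the difference of the effects with all libraries and all rows, 13 without merged, second or non-coding rows, and 12 to 23 with 1 left out. The median of the mitochondrial members in siTARG1 against siControl ranged from -0.20 to 0.32 with 1 library left out, that of the nuclear members from -0.045 to 0.017. The corresponding medians for RACK1-Mut ranged from 0.0056 to 0.090 and from -0.084 to -0.013.

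With coding-sequence reads the mitochondrial share moved from 1.18% to 1.77% in siTARG1, from 1.09% to 1.64% in siControl, from 0.752% to 1.17% in RACK1-Mut and from 0.733% to 1.13% in RACK1-WT, since untranslated regions leave the total; with 1 library left out the 4 shares ranged from 1.08 to 1.27%, 0.906 to 1.27%, 0.747 to 0.757% and 0.733 to 0.733%. Of single members, MT-CO2 was at -0.32 without siControl replicate 1 and 0.49 without siControl replicate 2, beside 0.02 with all libraries. Every other mitochondrial member also changed sign between fits with 1 library left out, such as MT-ND1 (-0.23 to 0.47) and MT-CO1 (-0.14 to 0.32). So did some uncalled nuclear members, among them COX6B2 and ATP5MGL. Among the other alternatives for named members, 50 lost a call, 13 gained one, 61 moved an uncalled value by more than its standard error and 1368 did none of these; the cause was not tested. Replicate numbers were shared between groups without being stated to pair them, and deviations of same-numbered libraries correlated at 0.26 in the siRNA groups and 0.028 in the RACK1 lines. With the replicate block 26 members were called in siTARG1 against siControl, 0 in RACK1-Mut against RACK1-WT and 16 for the difference of the effects. Smaller changes may be missed with this number of libraries.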
